A study of Mus musculus with 45 samples.

Results

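The annotation of the mouse genome holds many non-coding gene models that have not been studied one by one. Those of the biotypes TEC and sense_intronic were followed here in cultured mouse hippocampal neurons. TEC marks loci where cloned and polyadenylated transcripts point to a gene that still awaits experimental proof. Sense_intronic marks a non-coding transcript that lies in an intron of a coding gene on the same strand without touching its exons. Poly(A)-selected RNA reports such a model when a transcript with an A-tail or an internal A-rich stretch runs through it. In such counts a transcript of its own, unspliced pre-mRNA of the host and a host transcript that ends early cannot be told apart.

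Members were all rows of both biotypes in the GRCm38 annotation with a mean of at least 0.5 CPM (reads of a row over the library total, scaled to a common total) over the 45 libraries, with Gm47088 excepted by the rule. This left 219 models, 194 of them TEC and 25 sense_intronic, out of 3480 rows of both biotypes and 54532 rows in all. Of the 3480 rows, 689 had no read in any library. Members were thus selected on their mean CPM, and levels are given as a description only. The closest models inside the limit were Gm37174 at 0.502 and Gm42971 at 0.503 CPM, and the closest outside were Gm43719 at 0.497 and Gm42892 at 0.494. In 16 members the mean was under 0.5 CPM (0.266 to 0.494) without the 5 libraries of the long protocol with NMDA, so a high level in that group was needed to select them. They were Gm44799, Gm42970, Gm42971, Gm44677, Gm44678, Gm45201, Gm44831, Gm44559, Gm47075, 2900022M07Rik, A530041M06Rik, Gm37174, Gm37376, Gm44769, Gm43205 and Gm45464. For these models the values and fold differences in that group are a description, and no adjusted p against it is printed for them. They stay in the fits and in the counts of called members, except where a count without them is given.

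The neurons came from C57BL/6N mice at birth, were given AraC against dividing cells on day 3 in vitro and were treated on day 10 or 11. The 9 conditions were each sampled in the same 5 culture preparations (numbered 1, 3, 6, 7 and 8). They were an untreated control, the GABA-A receptor blocker bicuculline (Bic, at 50 µM) lasting 0.5 h, 1 h or 2 h, and protocols that added a further agent to running Bic. The short protocol (SP) had 0.5 h of Bic, to which the sodium channel blocker TTX (1 µM) was then added for a further 0.5 h, alone or together with NMDA (30 µM). The long protocol (LP) started with 1 h of Bic, and for another 1 h the cultures also received TTX, TTX together with NMDA, or TBOA (50 µM), which blocks glutamate uptake. NMDA in the bath reaches receptors outside synapses, and TBOA lets synaptic glutamate spill over to them. The passive effect compared TTX with Bic of equal total time, the active effect compared TTX/NMDA with TTX, and the total effect compared TTX/NMDA with Bic. The spillover effect compared TBOA with 2 h Bic.

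Library totals ran from 11316580 to 81129276 assigned reads with a median of 26239614. Summed CPM of 7 neuron markers stayed between 6459 and 7588 in every library. The summed level of 5 microglial markers was at most 8.48 CPM and that of 3 endothelial markers at most 3.19 CPM. The 5 astrocyte markers summed to 1017 ± 310 CPM (SD, n = 5) in LP TTX/NMDA and to 503 ± 108 after 2 h Bic. The 5 oligodendrocyte lineage markers summed to 226 ± 65.2 and 129 ± 19 CPM in the same groups. The part of these shifts in the results below was not tested. These are bulk libraries, so fewer cells of a type and less RNA per cell cannot be told apart.

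Most members sat next to or inside a coding gene. Of the 219, 81 (37%) lay in an intron of a coding gene on the same strand, 55 (25.1%) began within 10 kb after the 3′ end of one, 8 were antisense, 6 lay upstream and 5 overlapped an exon. The remaining 64 (29.2%) had no coding gene so placed. Exonic length ran from 298 to 30942 bases with a median of 2305, and 205 models (93.6%) had 1 exon, against 2.76% of protein-coding genes. The introns belonged to long genes, with a median host span of 87.8 kb against 26.8 kb over protein-coding genes. Of 78 members nested in exactly 1 host at 0.5 CPM or more, 9 shared 4 hosts (Dlg2 with 3 and Ank2, Kansl1l and Ptbp2 with 2 each), so 78 models stood for 73 host genes.

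The last bases of the transcripts were inspected for the polyadenylation hexamers AATAAA or ATTAAA, which sit shortly before the cleavage site of most coding mRNAs. Either hexamer occurred in the last 50 bases of 49.3% of members, against 74.8% of protein-coding genes, 58.5% of lincRNAs and 38.5% of all genes. Intronic members held one in 30.9% and members downstream of a coding gene in 67.3%. An A-rich stretch, 6 A in a row or 12 A among the last 20 bases, closed 9.59% of members and 11.3% of protein-coding genes. Median GC content was 43% in members and 49.8% in protein-coding genes. The last 60 bases of 8 models on which the results below turn are given 5′ to 3′ from the GENCODE M21 transcripts (GRCm38), with a hexamer in capitals where 1 is present. The first 3 lie in introns and had the largest fold differences with NMDA in the long protocol, which their selection favoured. A230103L15Rik lies in a run of raised models, Gm43268 moved while the gene before it was not called, and Peg13, B930095G15Rik and Gm44509 were the most abundant.
Gm44799, chr8:9658248-9658307, minus strand, intron of Fam155a: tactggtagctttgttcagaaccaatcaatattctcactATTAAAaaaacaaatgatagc
Gm42970, chr3:127298322-127298381, minus strand, intron of Ank2: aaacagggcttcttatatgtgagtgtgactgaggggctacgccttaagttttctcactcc
Gm44677, chr7:91630951-91631010, plus strand, intron of Dlg2: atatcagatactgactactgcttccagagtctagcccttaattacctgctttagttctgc
A230103L15Rik, chr7:59327318-59327377, minus strand, within the span of Snhg14: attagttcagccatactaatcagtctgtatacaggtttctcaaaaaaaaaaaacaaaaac
Gm43268, chr5:53909159-53909218, plus strand, after Tbc1d19: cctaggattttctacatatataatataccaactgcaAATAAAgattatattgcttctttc
Peg13, chr15:72805600-72805659, minus strand, intron of Trappc9: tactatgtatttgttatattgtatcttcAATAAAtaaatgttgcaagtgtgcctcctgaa
B930095G15Rik, chr14:121253912-121253971, plus strand, intron of Farp1: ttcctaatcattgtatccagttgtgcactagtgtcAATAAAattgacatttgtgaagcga
Gm44509, chr7:55973519-55973578, minus strand, after Nipa1: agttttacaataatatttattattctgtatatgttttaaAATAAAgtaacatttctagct
Gm42970 and Gm44677 end without either hexamer. A230103L15Rik has no hexamer and closes with an A-rich stretch, and Gm44799 has 12 A among its last 20 bases beside ATTAAA. The 3 most abundant models all carry AATAAA.

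Levels were low, with a median mean CPM of 1.11 over the members and a highest of 197 in Peg13, an imprinted non-coding RNA expressed from the paternal allele. Of the 219, 210 had a read in every library, 186 reached 0.5 CPM in controls and 152 did so in all 9 groups. The highest group mean fell on LP TTX/NMDA in 98 members, on SP TTX/NMDA in 40, on LP TTX in 20 and on controls in 19. Summed over members, the level was 764 ± 15.5 CPM in controls (SD, n = 5), 737 ± 14.6 after 2 h Bic, 834 ± 35 in SP TTX/NMDA and 927 ± 44.9 in LP TTX/NMDA. The LP TTX/NMDA libraries (866 to 974 CPM) lay above all 5 libraries of 2 h Bic (724 to 755 CPM). With LP TTX alone the sum was 772 ± 24.8 CPM and with TBOA it was 751 ± 34.5 CPM. Per kilobase of exon, Peg13 stood at 41.7 CPM, above its host Trappc9 at 10.9 CPM. On that scale 76 of the 78 nested members lay below their host, such as Gm44677 at 0.197 CPM against Dlg2 at 35.9 CPM, and Gm43359 at 0.927 CPM against Atp2a2 at 153 CPM. The median member changed relative to controls by -0.16 on the log2 scale after 2 h Bic, by 0.18 in SP TTX/NMDA and by 0.28 in LP TTX/NMDA.

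**Figure D1:**
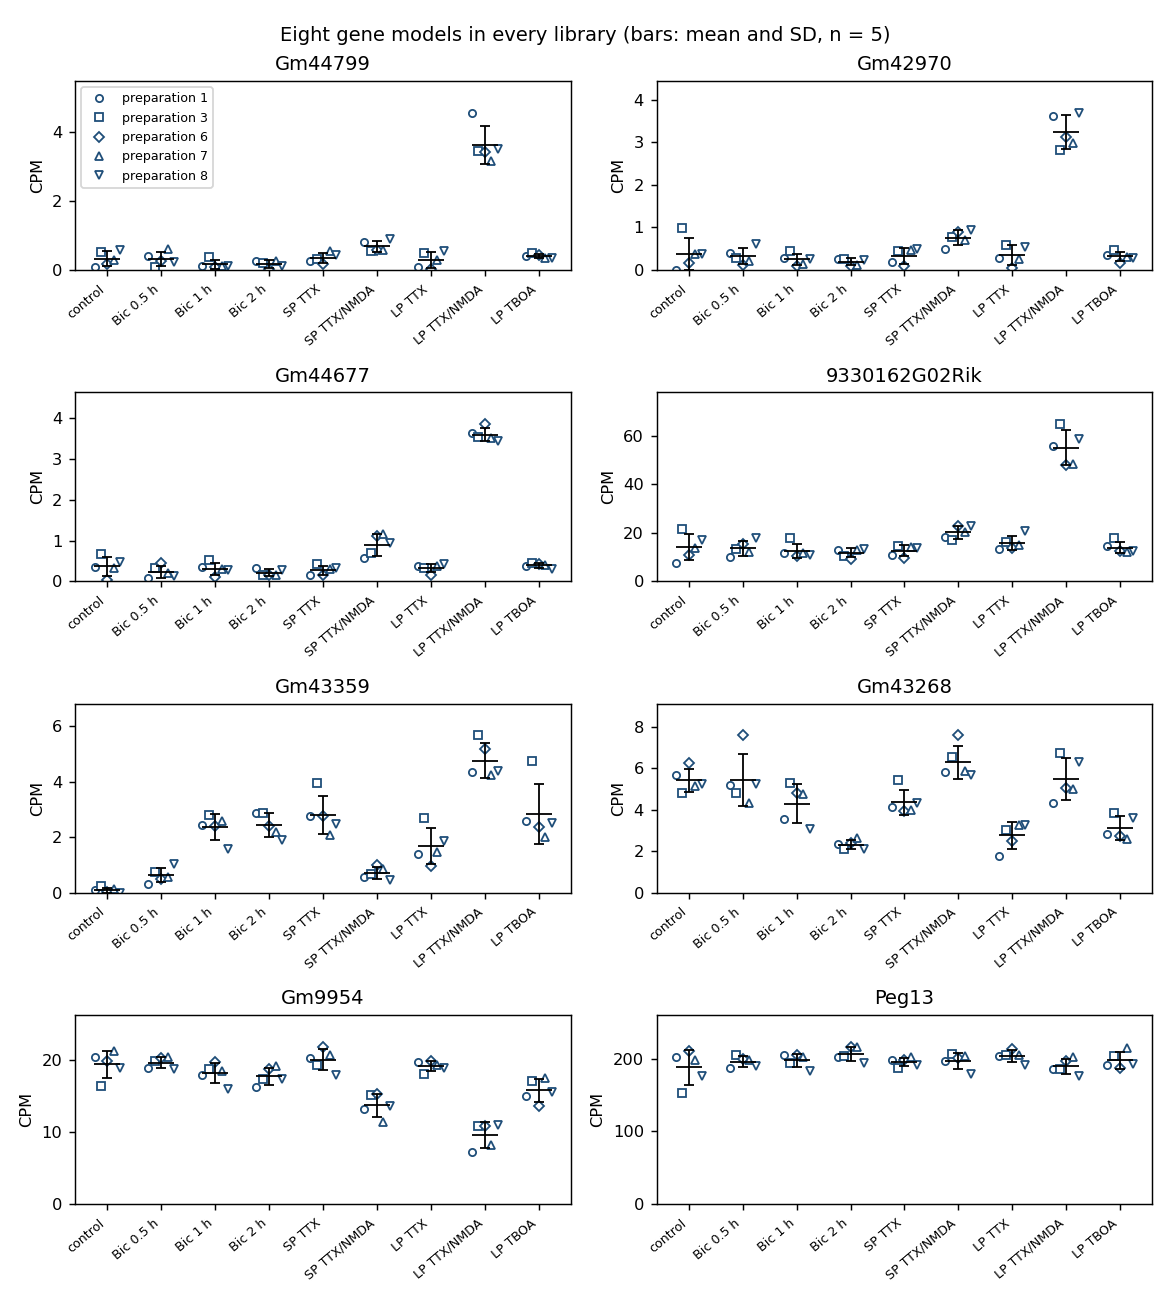
Level (CPM, y axis from 0) of 8 models in each of the 9 groups (x axis). Each point is 1 library with a marker per culture preparation, and bars give mean ± SD (n = 5). Gm44799, Gm42970, Gm44677 and 9330162G02Rik are highest in LP TTX/NMDA, Gm43359 is near 0 in controls, Gm43268 is lowest after 2 h Bic and with LP TTX, Gm9954 falls with NMDA and Peg13 varies little.

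The broadest change was the LP total effect, the comparison of 1 h TTX/NMDA after Bic with 2 h Bic. NMDA libraries had higher levels of 74 members and lower levels of 12 (edgeR's quasi-likelihood test, Benjamini-Hochberg adjusted p under 0.05 over 32243 genes). Over all genes tested, 11.7% rose and 11.1% fell. At a mean of at least 0.5 CPM, where all members are, 19.9% of genes rose and 23.2% fell, against 33.8% and 5.48% of members. The median member changed by 0.28 on the log2 scale, all tested genes by 0.11 and genes at 0.5 CPM or more by 0.02. Of the raised members, 68 of 74 were higher in 5 of 5 preparations, as the 12 lowered ones were lower in 5 of 5. On simulated counts a far larger share of the calls of this fit over all genes was false than in the same test after edgeR's filter for low counts, which called 88 raised and 16 lowered members. Fitted with the preparation as a replicate block after that filter, the counts were 92 and 21. When membership was decided in the 35 libraries outside the comparison, 61 of 200 (30.5%) rose and 12 fell.

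**Figure D2:**
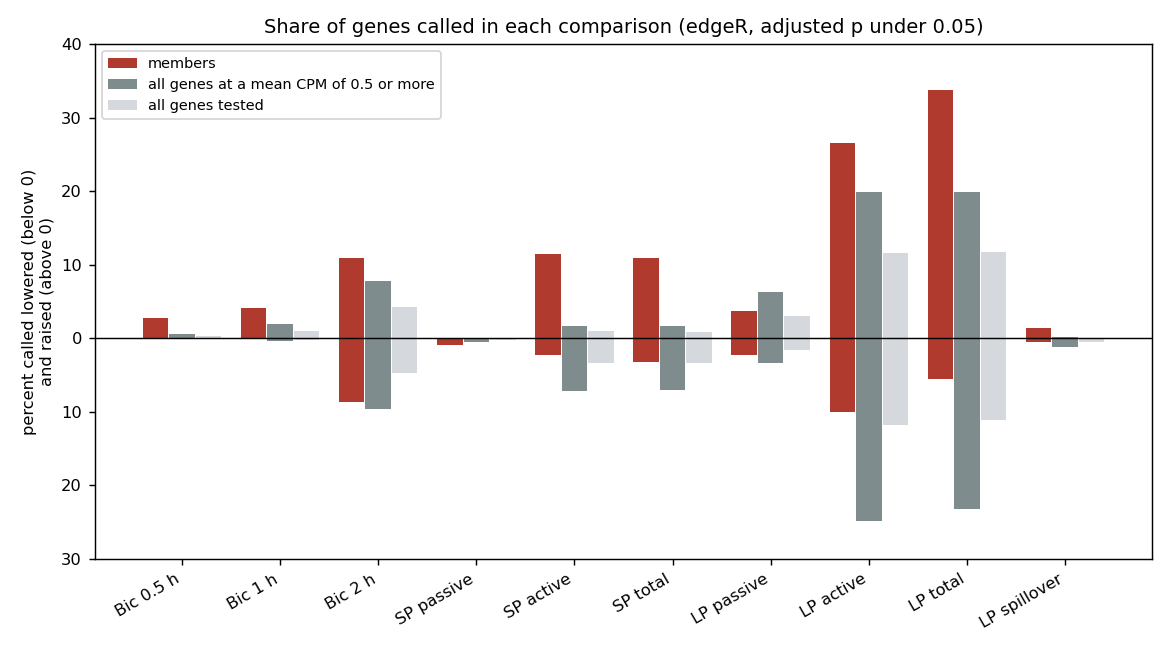
Percent of genes called (adjusted p under 0.05) as raised (above 0) or lowered (below 0) in each of the 10 comparisons (x axis), for the 219 members, all genes with a mean of at least 0.5 CPM and all genes tested. In the LP total effect 33.8% of members rose against 19.9% of genes at 0.5 CPM or more, and 5.48% fell against 23.2%.

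Of the 8 largest rises named by rule, 6 lay in introns and 2, A230103L15Rik and Gm44831, had no coding gene so placed. Only Gm19938 and A230103L15Rik of these 8 would also be members without the LP TTX/NMDA libraries. Gm19938, the sense_intronic model in Xkr4 (a member of the XK family of membrane proteins), moved in both directions. It was at 0.884, 1.62, 0.409, 0.970 and 1.13 CPM in controls, 0.371, 0.381, 0.305, 0.605 and 0.484 CPM after 2 h Bic, and 6.51, 6.24, 4.68, 5.16 and 4.03 CPM in LP TTX/NMDA. It fell by 1.1 after 2 h Bic (SE 0.30, adjusted p = 0.0149, and 0.103 without preparation 3) and rose by 3.44 ± 0.21 in the LP total effect (adjusted p = 7.93e-15). Both comparisons use the 2 h Bic libraries, with opposite sign. Xkr4 changed by 0.09 after 2 h Bic and fell by 0.98 in the LP total effect. In Map1b, which encodes a microtubule-associated protein, 5330431K02Rik rose by 2.86 ± 0.24 while its host fell by 0.32, and it was named after its values were seen.

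The models described next were selected through their LP TTX/NMDA level. Gm44799 lies within a 195290-base intron of Fam155a, whose product is a subunit of the NALCN sodium leak channel complex. After 2 h Bic its level was 0.265, 0.191, 0.0234, 0.272 and 0.121 CPM in preparations 1, 3, 6, 7 and 8. In LP TTX/NMDA it was 4.58, 3.47, 3.42, 3.18 and 3.52 CPM. The groups did not overlap, and the difference was 4.28 ± 0.28 on the log2 scale (SE). Its host Fam155a changed by -0.07 ± 0.07 (adjusted p = 0.531).

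Ank2 (ankyrin-B, a membrane scaffold) and Dlg2 (the postsynaptic scaffold PSD-93) each held several members. Gm42970 and Gm42971 share the same 86561-base intron of Ank2. Gm42970 was at 0.265, 0.267, 0.0937, 0.121 and 0.242 CPM after 2 h Bic and at 3.63, 2.81, 3.12, 2.99 and 3.70 CPM in LP TTX/NMDA. Its difference was 3.94 ± 0.25 and that of Gm42971 was 3.90 ± 0.27, while Ank2 fell by 0.37 (adjusted p = 2.13e-04). The pair lies on 1 strand of 1 intron and is not independent. Gm44677 in Dlg2 was at 0.318, 0.152, 0.164, 0.151 and 0.282 CPM after 2 h Bic and at 3.63, 3.54, 3.86, 3.52 and 3.43 CPM in LP TTX/NMDA. Its difference was 3.93 ± 0.23, and those of its neighbours Gm44678 and Gm45201 in other Dlg2 introns were 2.96 ± 0.23 and 1.64 ± 0.24. Dlg2 itself fell by 0.79 (adjusted p = 4.74e-10). Along Dlg2 the largest of the 3 differences lay in the middle of the gene, 58.3% of the way from its start, with 43.8% for Gm44678 and 99.1% for Gm45201. In Adgrb3, 2900022M07Rik, named after its values were seen, differed by 2.60 while its host fell by 0.31.

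Model and host were then set side by side for all 78 nested members. In the LP total effect 24 of them rose, beside a host that fell in 15, rose in 1 and was not called in 8. These counts include models selected through LP TTX/NMDA, among them those named above in Ank2 and Dlg2 and those in Homer1, Adgrb3, Lrig2 and Reep1. Ank2 and Dlg2 enter more than once. The counts are therefore a description. Of the nested members 6 fell, beside a falling host in 5. Over the 75 hosts of intronic members, 6 rose and 33 fell. The ratio of model to host reads, in which the library total cancels, was fitted with limma over 129 nested pairs of any biotype. It rose in 27 and fell in 4 of the 78 members, and in all 129 pairs 33.3% rose and 6.98% fell. The 27 also include models selected through LP TTX/NMDA. The members are the bulk of these pairs, so their share is not set apart from the background. The fall in 4 was lost without preparation 6, which left 0. The largest ratio differences were 4.69 ± 0.45 for Gm47075 in Homer1, 4.64 ± 0.23 for Gm44677 and 4.43 ± 0.46 for Gm44799, all selected through LP TTX/NMDA. For Gm19938, which was not, the ratio rose by 4.39 ± 0.22 (adjusted p = 3.77e-10). Those that fell most were Gm43071 in Dram2 by 0.72, Gm38357 in Noct by 0.64 and Gm27002 in Osbpl10 by 0.61 (adjusted p = 0.0220, 0.0366 and 0.0295). Gm38357 and Gm27002 also fell as levels in the LP total effect, by 1.00 ± 0.24 and 1.07 ± 0.25 (adjusted p = 0.00201 and 0.00116).

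**Figure D3:**
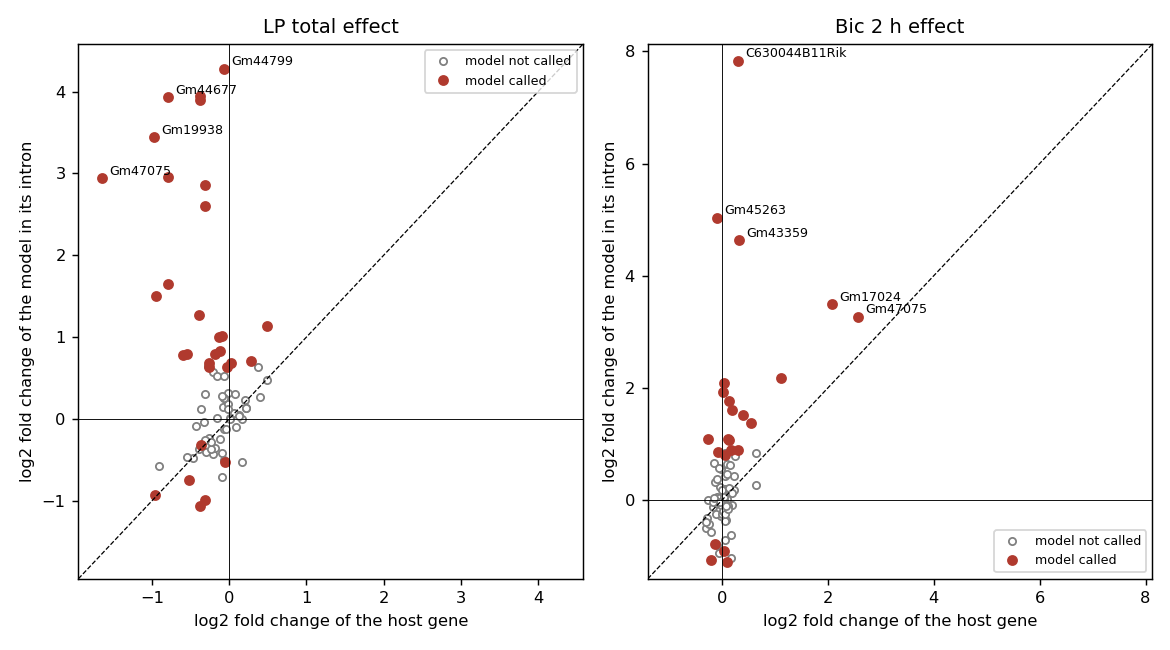
Log2 fold change of each intronic member (y axis) against that of its host gene (x axis), for the LP total effect and for 2 h Bic against control. Filled points are members called at adjusted p under 0.05, and the dashed line marks equal change. In the LP total effect 15 of 24 raised members have a lowered host, and after 2 h Bic 7 of 19 raised members have a raised host. The 24 and the 15 include models selected through LP TTX/NMDA, whose rise in this comparison was thereby favoured. C630044B11Rik had 0 control reads, so its plotted fold after Bic depends on the prior count of the fit.

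The median host span was 116 kb over 25 raised intronic members, 56.9 kb over 6 lowered and 69.7 kb over 49 not called. A host counts once per member, so Dlg2 and Ank2 enter more than once. The raised members, also in the counts by position below, include models selected through LP TTX/NMDA. These spans are therefore a description. By position, 25 of 81 intronic members rose and 6 fell, 20 of 55 downstream members rose and 2 fell, and 29 of the 83 others rose and 4 fell. Of the 55 coding genes before the downstream members, 6 rose and 19 fell. Among the 20 raised downstream members the gene before them rose in 3, fell in 5 and was not called in 12. Among other non-coding genes at 0.5 CPM or more, the split was closer to even. Of 395 lincRNAs, 78 rose and 51 fell. Of 305 antisense genes, 29 rose and 40 fell.

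A run of 6 members lay on the minus strand of chromosome 7 and was singled out after its values were seen. It spans 407 kb around the 3′ part of the Snhg14 and Ube3a locus, in which Snhg14 is a long non-coding RNA expressed from the paternal allele that runs antisense to the ubiquitin ligase gene Ube3a. Of these, 4 lie beyond the annotated 3′ end of Snhg14, up to 84.1 kb away, and 2 within its span. 9330162G02Rik, 30942 bases long, was at 13.1, 10.3, 9.42, 13.1 and 13.3 CPM after 2 h Bic and at 55.8, 64.9, 47.9, 48.4 and 58.7 CPM in LP TTX/NMDA. The groups lay far apart, and the rise was 2.04 ± 0.09 (adjusted p = 1.62e-17). A230103L15Rik rose by 3.07 ± 0.16 and Gm44562 and Gm44560 by 2.87 and 1.14. Gm44831 and Gm44559, selected through LP TTX/NMDA, differed by 3.03 ± 0.27 and 2.52. None of the 3 annotated neighbours was called. Ube3a changed by 0.01 ± 0.08, Snhg14 by 0.03 ± 0.09 and Snrpn by 0.02 ± 0.06 (adjusted p = 0.949, 0.846 and 0.836). The 6 models lie on 1 strand of 1 locus and are not independent.

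Summed over the 6 models, the level was 20.3 ± 7.42 CPM in controls, 16.2 ± 2.1 after 2 h Bic, 21.3 ± 3.87 with LP TTX, 84.0 ± 12.4 in LP TTX/NMDA and 19.1 ± 4.12 with TBOA. SP TTX/NMDA gave 29.6 ± 4.02 CPM. The LP TTX/NMDA libraries (71.6 to 100 CPM) overlapped with no other group named here. The 6 models made up 67.9 CPM, or 35.7%, of the 190 CPM by which the summed level of all members was higher in LP TTX/NMDA than after 2 h Bic, and 9330162G02Rik alone made up 43.3 CPM. Of the 219 members, 173 had a higher mean in LP TTX/NMDA. A seventh model in the window, Gm44742, had 0.428 CPM and was no member. It changed by 0.76 in the LP total effect (adjusted p = 0.068, and 0.0219 with the replicate block after the filter).

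**Figure D4:**
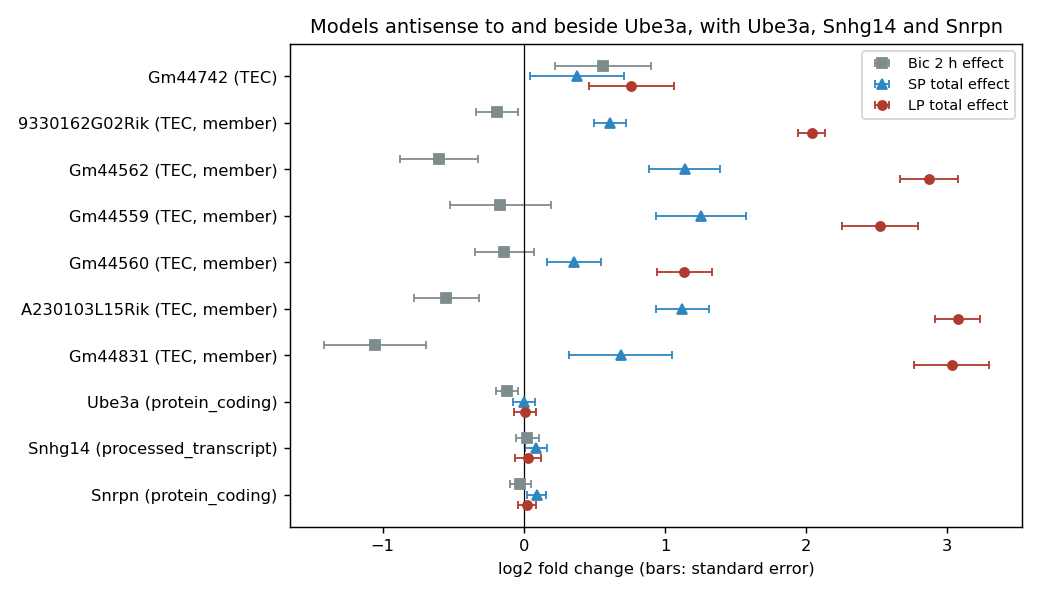
Log2 fold change ± SE (x axis) of 7 TEC rows near Ube3a on chromosome 7 and of the annotated genes Ube3a, Snhg14 and Snrpn (y axis), after 2 h Bic, in the SP total effect and in the LP total effect. The 6 members rise in the LP total effect by 1.14 to 3.07, and the 3 annotated genes change by 0.03 or less.

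In the LP total effect 12 members fell, and the largest fall was that of an abundant one. Gm9954, on chromosome 5 with no coding gene so placed, was at 16.2, 17.3, 18.7, 19.1 and 17.3 CPM after 2 h Bic and at 7.16, 10.8, 10.8, 8.15 and 10.9 CPM in LP TTX/NMDA. It fell by 1.09 (SE 0.11, adjusted p = 1.56e-09) without overlap of the groups. Gm10524 fell by 0.94 (SE 0.15, adjusted p = 6.1e-06). Peg13 was at 202, 204, 217, 216 and 194 CPM after 2 h Bic and at 186, 186, 197, 203 and 176 CPM in LP TTX/NMDA. It fell by 0.32 (adjusted p = 0.00061), as its host Trappc9 fell by 0.37, and the ratio changed by 0.05 (adjusted p = 0.648). B930095G15Rik changed by -0.03 (adjusted p = 0.77). Of the 5 most abundant members, Peg13 and Gm9954 fell, Gm44509 and 9330162G02Rik rose and B930095G15Rik was not called.

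In the LP active effect, the addition of NMDA to TTX, 58 members rose and 22 fell, against 11.6% and 11.8% of the genes tested. At 0.5 CPM or more 19.9% of genes rose and 24.9% fell. With membership decided in the other 35 libraries, 43 of 200 (21.5%) rose, and of the 186 members at 0.5 CPM in controls 36 (19.4%) rose, near the background share, while 22 and 21 fell. Both LP effects share the LP TTX/NMDA libraries. With the filter 67 rose and 26 fell, and with the replicate block after the filter 78 rose and 38 fell. The largest differences were those of Gm47075 (3.57 ± 0.30), Gm44799 (3.32 ± 0.27) and Gm44677 (3.20 ± 0.20), all selected through LP TTX/NMDA. Among models not so selected, Gm19938 rose by 3.11 ± 0.19 (adjusted p = 3.75e-13). Gm9954 fell by 1.18, Gm49204 in Exoc5 by 1.12 and Gm43071 by 1.03 (adjusted p = 1.25e-09, 0.00136 and 0.000276). For Ube3a and Snhg14 this comparison gave falls of 0.30 and 0.35 (adjusted p = 0.0061 and 0.0093).

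In the short protocol NMDA acted for 0.5 h, and fewer members passed. In the SP total effect (against 1 h Bic) 24 rose and 7 fell, beside 0.891% and 3.41% of all genes tested and 1.63% and 7.10% of genes at 0.5 CPM or more. In the SP active effect (against SP TTX) 25 rose and 5 fell, beside 0.956% and 3.32%. Of the 203 members at 0.5 CPM without LP TTX/NMDA, 15 (7.39%) rose and 7 fell in the SP total effect. In the SP active effect 18 (8.87%) of these 203 rose and 5 fell. With the filter the counts were 25 and 6 in the SP total and 28 and 5 in the SP active effect. The raised counts depend on the fit. With the replicate block after the filter they were 50 and 38, and without preparation 6 they dropped to 15 and 12 (16 in the SP active effect without preparation 1). Astrocyte markers summed to 629 ± 172 CPM in SP TTX/NMDA and 510 ± 160 after 1 h Bic, and their part was not tested. By position, 12 intronic members rose and 4 fell in the SP total effect, 3 downstream members rose and 1 fell, and 9 of the others rose and 2 fell. The SP and LP total effects share no library. Raised in both were 22 members, out of 24 in SP and 74 in LP, and 4 were lowered in both. The 22 include models selected through LP TTX/NMDA, whose LP rise was thereby favoured. The share of all genes called in both was not counted, so the overlap is a description.

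Gm28119, a 298-base sense_intronic model with no coding gene so placed, had the largest rise after short NMDA. It was at 0.348, 0.416, 0.249, 0.337 and 0.322 CPM after 1 h Bic and at 2.32, 1.09, 2.09, 1.36 and 1.83 CPM in SP TTX/NMDA. The rise was 2.30 ± 0.26 (adjusted p = 7.38e-08), close to its LP rise of 2.56 ± 0.21, and the difference between the protocols was 0.26 ± 0.35 (adjusted p = 0.929). Gm44799 rose by 1.96 ± 0.36 and Gm44678 by 1.65 ± 0.33 (adjusted p = 0.000411 and 0.00108). Both were members only through their LP TTX/NMDA level. Gm10524 fell by 0.75 and Gm17024 by 1.61.

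The difference between the protocols was tested as an interaction over 20 libraries. It was positive in 16 members and negative in 2, against 0.42% and 1.08% of the genes tested and 0.797% and 2.46% of genes at 0.5 CPM or more. Of the 203 members at 0.5 CPM without LP TTX/NMDA, 10 were positive and 2 negative. With the filter 22 and 3 were called, and with the replicate block after the filter 37 and 6. Without preparation 3 the positive count was 9, and without preparation 1 the negative count was 0. Gm42971 and Gm44677 differed more in LP by 2.43 ± 0.52 and 2.40 ± 0.43, an excess that their selection through LP TTX/NMDA builds in. Gm19938, not so selected, rose further in LP by 1.98 ± 0.31 (adjusted p = 0.000131). On chromosome 7, 9330162G02Rik rose further in LP by 1.43 ± 0.16 and A230103L15Rik by 1.95 ± 0.28. Gm9954 was negative with -0.60 and Gm49759 with -0.79 ± 0.15, and both calls were lost without preparation 1 (Gm9954 also without 3). Within the chromosome 7 run, Gm44560 was not called (adjusted p = 0.163), but had adjusted p = 0.0344 with the replicate block after the filter.

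Gm43359 changed in opposite directions in the protocols. This TEC model lies in an intron of Atp2a2, which encodes the SERCA2 calcium pump of the endoplasmic reticulum. In controls it was at 0.0884, 0.238, 0.034, 0.119 and 0 CPM, after 1 h Bic at 2.44, 2.82, 2.40, 2.59 and 1.56 CPM and after 2 h Bic at 2.87, 2.86, 2.39, 2.18 and 1.90 CPM. Bic thus brought it from near 0 to about the same level at 1 and 2 h. In SP TTX/NMDA it was at 0.571, 0.685, 0.983, 0.863 and 0.456 CPM, and in LP TTX/NMDA at 4.34, 5.68, 5.20, 4.24 and 4.38 CPM. It fell by 1.82 in the SP total effect and rose by 0.78 ± 0.15 in the LP total effect, a difference of 2.61 ± 0.26 (adjusted p = 9.91e-09). Atp2a2 rose by 0.33 after 2 h Bic and fell by 0.60 in the LP total effect, so that the ratio of model to host rose by 1.38 ± 0.16.

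Bic alone moved few members early and more with time. After 0.5 h 6 rose and 0 fell, against 0.289% and 0% of the genes tested. At an unadjusted p under 0.05, 9 rose and 7 fell. After 1 h 9 rose and 0 fell, against 0.965% and 0.195%, with 18 and 17 at an unadjusted p under 0.05. After 2 h 24 rose and 19 fell, against 4.24% and 4.78%, and against 7.82% and 9.65% of genes at 0.5 CPM or more. With the replicate block after the filter 34 rose and 32 fell after 2 h, with the filter alone 25 and 20, and without preparation 6 the lowered count was 12. Of the 6 members raised at 0.5 h only 1 stayed called after the filter, and 5 of the 6 lay in introns. Members near 0 in controls reached the limit through treated groups, so a rise over controls is built into them. Of the 186 members at 0.5 CPM in controls, which leave them out, 1 rose after 0.5 h (0.538%) and 3 after 1 h (1.61%). After 2 h 10 rose (5.38%) and 19 fell. Those raised shares were near or below the 0.563%, 1.86% and 7.82% of genes at 0.5 CPM or more.

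Among intronic models near 0 in controls, 3 had at most 2 control reads and rose with Bic. C630044B11Rik, within the first part of Ntrk2, which encodes the BDNF receptor TrkB, had 0 reads in all 5 controls. Its level was 1.28, 0.928, 1.04, 1.57 and 0.590 CPM after 1 h Bic. Against a floor of 3 counts over the pooled controls it was at least 14.4-fold higher after 0.5 h, at least 47.4-fold after 1 h and at least 42.5-fold after 2 h. Gm45263 in Gpm6a, a neuronal membrane glycoprotein gene, had 2 control reads. The ratio of pooled levels was 25.8 after 0.5 h (95% counting interval 6.66 to 221), 53.1 after 1 h (14.4 to 444) and 39.1 after 2 h (10.5 to 328). Gm47075 lies in Homer1, whose short activity-induced transcripts end within the gene, and also had 2 control reads. Its ratio was 27.9 (7.23 to 238), 33.2 (8.85 to 279) and 11.2 (2.80 to 97.9) at the same times. The intervals cover counting error only.

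Further models in introns, with control means between 0.145 and 1.58 CPM, rose with Bic and were named after their values were seen. After 2 h, A530041M06Rik in Lrig2 rose by 2.18 ± 0.36, Gm37940 in Snd1 by 2.09 ± 0.29, Gm38190 in Tiprl by 1.94 ± 0.23, 9930017N22Rik in Mtdh by 1.76 ± 0.26 and Gm11611 in Srcin1 by 1.61 ± 0.17 (adjusted p = 3.09e-05, 1.6e-06, 4.79e-08, 4.67e-06 and 3.39e-09). Each was higher in 5 of 5 preparations, with no overlap of the groups. Gm38190 and 9930017N22Rik were already higher after 1 h, by 1.35 ± 0.25 and 1.30 ± 0.29, and fell again with LP TTX by 0.76 and 1.04. A330074H02Rik, with no coding gene so placed, rose by 1.55 ± 0.36 after 0.5 h, 2.04 ± 0.29 after 1 h and 2.10 ± 0.29 after 2 h.

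Gm17024 in Ifrd1, a gene for a transcriptional co-regulator, moved in the direction of its host after 2 h Bic and in the LP total effect. It was at 0.442, 0.333, 0.511, 0.475 and 0.752 CPM in controls and at 6.53, 6.59, 4.59, 5.09 and 4.11 CPM after 2 h Bic. It rose by 3.49 ± 0.21 (adjusted p = 2.06e-15) and Ifrd1 by 2.09. With LP TTX Gm17024 fell by 2.00 (SE 0.17), for which the host change is not given here. In the LP total effect both fell, by 0.93 and 0.96. The ratio then changed by 0.00 ± 0.18 (adjusted p = 0.984). In the LP total effect Gm47075 moved against its host. It was at 0.371, 0.343, 0.0703, 0.151 and 0.0403 CPM after 2 h Bic and at 1.46, 2.31, 1.49, 1.16 and 1.25 CPM in LP TTX/NMDA. It was selected through LP TTX/NMDA and differed by 2.94 ± 0.34, while Homer1 fell by 1.65.

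The direction after 2 h Bic went with position, which was not tested. After 2 h, 19 intronic members rose and 4 fell, while 1 downstream member rose and 10 fell. Of the 19 hosts of raised models 7 rose, 1 fell and 11 were not called. Of the 10 lowered downstream members, the gene before them fell in 2 and was not called in 8. Gm43268, 1199 bases after Tbc1d19, was at 5.66, 4.80, 6.26, 5.15 and 5.21 CPM in controls and 2.33, 2.10, 2.39, 2.63 and 2.10 CPM after 2 h Bic. It fell by 1.13 (SE 0.15, adjusted p = 3.55e-07) and rose by 1.05 ± 0.15 in the LP total effect (adjusted p = 1.63e-06), whereas Tbc1d19 changed by 0.02 and -0.02 and was not called. Gm33378, with no coding gene so placed, fell by 1.63 (SE 0.36, adjusted p = 0.0015). Gm42664 in Ptbp2, which encodes a neuronal splicing regulator, fell by 1.07 (adjusted p = 0.0608 without preparation 6), and 4732416N19Rik fell by 1.02. Gm44509, 2725 bases after the magnesium transporter gene Nipa1, fell by 0.50 after Bic and rose by 0.33 ± 0.08 in the LP total effect, in which Nipa1 fell by 0.48. In all, 13 members fell after 2 h Bic and rose in the LP total effect and 6 did the reverse. Both comparisons use the 2 h Bic libraries with opposite sign, so spread in those libraries alone can give such pairs. The same limit holds for Gm43268 and Gm44509. Of the 74 raised, 52 were not called after Bic at any time. These joint counts were not made over all genes, and the 74 include models selected through LP TTX/NMDA.

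TTX alone and TBOA moved few members. In the SP passive effect 0 rose and 2 fell, against 0.0157% and 0.252% of the genes tested, with 10 and 8 at an unadjusted p under 0.05. DESeq2 called 1 lowered member. Gm45263 fell by 1.6 ± 0.29 (adjusted p = 0.00175) and C630044B11Rik by 1.39 ± 0.32 (adjusted p = 0.0423, lost in 7 alternatives). In the LP passive effect 8 rose and 5 fell, against 3.03% and 1.62% of the genes tested. Against genes at 0.5 CPM or more, of which 6.31% rose and 3.34% fell, the members (3.65% and 2.28%) were below the background both ways. With the filter alone 9 rose and 6 fell. With the replicate block after the filter 25 rose and 12 fell, and without preparation 3 the raised count was 4. Gm45263 fell by 2.53 and Gm17024 by 2.00, while Gm38104 in Cep170 and Gm42664 rose by 1.32 ± 0.25 and 0.95 ± 0.20 (adjusted p = 0.000958 and 0.00305). Of the 5 lowered members, 4 had been raised by 2 h Bic against control, a comparison that shares the 2 h Bic libraries.

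In the spillover effect 3 members rose and 1 fell, against 0.0536% and 0.549%. At an unadjusted p under 0.05, 23 rose and 14 fell. Gm47075 rose by 1.72 ± 0.40 (adjusted p = 0.0276) and Gm45263 by 1.01 ± 0.23 (adjusted p = 0.0221). Gm49759, which overlaps an exon of the pyruvate kinase gene Pkm, was at 13.7, 12.8, 9.77, 11.7 and 12.5 CPM after 2 h Bic and 6.29, 8.66, 9.95, 9.03 and 8.27 CPM with TBOA. It fell by 0.57 (SE 0.11, adjusted p = 0.00294). Gm47075 was not called after the filter (adjusted p = 0.11) or without preparation 6 or 7, Gm45263 without 3 or 6 and Gm49759 without 1. With all 45 libraries in 1 fit these 3 were not called either (adjusted p = 0.0572, 0.182 and 0.0523). Of the 9 members in the run near Ube3a and in Dlg2, none was called with TBOA. Over all 10 comparisons 122 members were called at least once and 97 never.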

How the data were processed

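RNA from 45 cultures (9 groups, 5 preparations each) was poly(A)-selected and sequenced single-end with 75 cycles. Per the submitters' processing notes, the authors used bcl2fastq 2.20.0.422, STAR 2.5.4b and featureCounts 1.6.5 on GRCm38, and the deposited counts are whole reads per gene, stranded, without multi-mapping or multi-overlapping reads. Models and genes on opposite strands were thereby kept apart, whereas reads from unspliced host RNA count for a model inside an intron. Biotypes, positions and transcript ends came from GENCODE M21, in which 54495 of 54532 rows were found. CPM are reads over the library total, scaled to a common total.

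Counts were tested with edgeR 4.0.16 (limma 3.58.1, R 4.3.3): TMM scaling, quasi-likelihood F test on the 10 libraries of each comparison (20 for the difference of protocols), every gene with at least 1 read, Benjamini-Hochberg over all of them, called under 0.05. Preparation numbers are culture preparations per the labels and so pair the samples. Same-numbered libraries deviated together with mean correlations of 0.359 to 0.545 per comparison (lowest single value -0.208). The study used DESeq2 with a Wald test per pair of conditions and does not state whether preparation entered its design. The unblocked fit is the main one here, and the block is given where it moves a count. The ratio of model to host was log2 of (reads + 0.5)/(reads + 0.5), tested with limma. Alternatives were DESeq2 1.42.0, its size factors, filterByExpr, the replicate block, all 45 libraries, other membership limits and each preparation left out. On simulated counts a far larger share of calls was false in the unfiltered than in the filtered fit, so adjusted p of unfiltered calls are too small as a guide to false calls, above all at low counts. The library total sets the precision: at the smallest, 0.5 CPM is only a few reads.

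Named are the members with the largest called change in the same direction in 5 of 5 preparations (8 raised and 4 lowered for the LP total effect, 5 and 5 for 2 h Bic, 3 and 3 for the LP active and SP total effects and, without the preparation condition, for their difference, 2 and 2 for the rest), the 5 most abundant, those nearest the limit, those within 5 kb of listed activity-regulated genes, and 3 in each direction by ratio. Any other is said to be chosen after its values were seen. The members and lists were chosen with earlier results of these data known. A-rich stretches were sought in the last 20 transcript bases rather than in the genomic bases after the end, since no genome sequence was used here. A raised member of the spillover effect is counted but not reported here.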

Additional observations from a re-analysis of the deposited data

Results flagged for a closer look

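Of 279 groups of 5 libraries of named members, 23 held a library far from the other 4 (Dixon's criterion, which chance meets in about 1 of 20 groups). In 15 of them it was the library of preparation 3. In controls, preparation 3 was highest for Gm44678 (0.808 CPM), 4732416N19Rik (1.76) and Gm37174 (0.951) and lowest for Gm10524 (2.90). After 0.5 h Bic the outlying values were 0.562 for Gm28119 (preparation 3), 0.541 for Gm42971 (preparation 8), 7.57 for Gm43268 (preparation 6) and, as the lowest, 0.651 for Gm38357 (preparation 7). After 1 h Bic preparation 3 was highest for Gm44799 (0.384) and 9330162G02Rik (17.8), and after 2 h Bic preparation 1 was highest for Gm45263 (0.955). With SP TTX preparation 3 was highest for Gm45263 (0.374), Gm33378 (1.25), Gm43268 (5.41) and Gm28119 (0.416) and lowest for Gm27002 (0.458), and preparation 6 was lowest for Gm44831 (0.0676). With SP TTX/NMDA C630044B11Rik reached 1.17 in preparation 3 and Gm49204 reached 0.942 in preparation 6. With LP TTX Gm44678 reached 0.576 in preparation 8. With LP TTX/NMDA Gm44799 reached 4.58 in preparation 1 and Gm47075 reached 2.31 in preparation 3. With TBOA Gm43359 reached 4.74 in preparation 3.

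The NMDA effect differed between the long and short protocols, by the interaction test, in 5 members named for it. The difference in log2 fold change, LP minus SP, was 2.61 for Gm43359, 2.43 for Gm42971 and 2.40 for Gm44677. The latter 2 were selected through their LP TTX/NMDA level, which builds in such a difference. It was -0.60 for Gm9954 and -0.79 for Gm49759. Gm43359 moved in opposite directions, whereas Gm9954 fell in both protocols.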

How the results depend on the processing

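Over the summary counts, 233 values under an alternative stayed within 1.5 times the main count and 79 did not. Of 58 effects of single named members, 46 kept direction and call in every alternative run. In the others 32 values lost the call and 0 reversed. The cause of the shifts below was not tested, except that membership at 1 CPM leaves fewer members.

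Counts are members raised or lowered. Paired by preparation, the replicate block over all genes gave, after 0.5 h Bic, 1 lowered; after 1 h, 16 raised and 10 lowered; after 2 h, 39 lowered; SP passive 5 raised and 4 lowered; SP active 54 and 8; SP total 54 and 13; LP passive 31 and 12; LP active 39 lowered; LP total 23 lowered; spillover 7 and 7. The replicate block after filterByExpr gave 1 raised at 0.5 h, 2 lowered at 1 h, 32 lowered at 2 h, 1 lowered in SP passive, 38 raised in SP active, 50 raised in SP total, 25 and 12 in LP passive, 38 lowered in LP active, 21 lowered in LP total, 3 lowered in spillover, and 37 and 6 in the difference of protocols. filterByExpr alone gave 1 raised at 0.5 h and 1 lowered in SP passive. DESeq2 gave 1 lowered in SP passive, 4 raised in LP passive and 1 raised in spillover, and its size factors 1 lowered in SP passive. Fitting all 45 libraries gave 1 lowered at 1 h, 1 lowered in SP passive and 0 lowered in spillover.

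Membership at a mean of at least 1 CPM (121 models) left 3, 5 and 12 raised at 0.5, 1 and 2 h, 0 lowered in SP passive, 14 raised in SP active, 10 in SP total, 4 raised and 3 lowered in LP passive, 28 raised in LP active, 40 in LP total, 1 in spillover, and 9 raised ratios. Membership over the controls alone (197 models, some of them outside the 219) gave 1, 3 and 10 raised at 0.5, 1 and 2 h, 1 lowered at 1 h, 0 lowered in SP passive, 16 raised in SP active, 14 raised and 4 lowered in SP total, and 1 raised in spillover.

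Leaving out 1 preparation at a time gave 5 to 6 raised at 0.5 h, 7 to 9 raised and 0 to 2 lowered at 1 h, 18 to 26 and 12 to 19 at 2 h, 0 to 1 and 1 to 2 in SP passive, 12 to 27 raised in SP active, 15 to 29 raised and 5 to 8 lowered in SP total, 4 to 9 raised in LP passive, 49 to 55 and 15 to 23 in LP active, 62 to 75 and 10 to 15 in LP total, 1 to 4 and 0 to 3 in spillover, 9 to 19 and 0 to 3 in the difference of protocols, and 20 to 26 and 0 to 4 for the ratio. Depth limits models near 0.5 CPM, which hold few reads per library.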
